A study of Sus scrofa with 12 samples.

Results

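The pre-mRNA splicing and mRNA export genes of pig Semimembranosus muscle were described across 12 Italian Large White pigs. The genes were chosen by symbol: names beginning with SRSF, HNRNP, PRPF, SF3A, SF3B, SNRP, U2AF, LSM or THOC, with PNISR and SREK1 added. The choice gave 73 of the 25880 genes in the count table, and 72 of them had enough counts to be tested. SNRPN, which codes for a Sm protein, was listed at 0 counts in every pig. The classes were 12 SR genes (SRSF, PNISR and SREK1), 14 hnRNP, 11 PRPF, 6 SF3, 8 SNRP, 3 U2AF, 13 LSM and 6 THOC genes. LSMEM1 and LSMEM2 entered the LSM class by name only, since they code for leucine-rich single-pass membrane proteins. The high intramuscular fat (IMF) group held pigs 1 to 6 and the low IMF group pigs 7 to 12, one muscle sample per pig, all of one breed under the same diet and housing and without any treatment. The labels gave 3 females and 3 castrated males per group, live weights of 150 to 160 kg and ages of 229 to 249 days, with pig 7 at 249 days. The groups were extremes of one population and not an experimental intervention, so anything else that differed between the pigs cannot be told apart from IMF content.

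Introns are removed from pre-mRNA by the spliceosome, which is built on each intron from small nuclear ribonucleoproteins (snRNPs) and many other proteins. SR proteins bind exonic sequences through RNA recognition motifs and recruit the machinery through domains rich in arginine and serine, while hnRNP proteins coat the transcript and often oppose them. Many SR genes regulate their own mRNA by including an exon that leads to its decay. In skeletal muscle, alternative splicing sets the isoforms of sarcomere and calcium-handling proteins.

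Libraries held 131048805 to 178013997 counts, and pig 7, with 133915596, was not the shallowest. Pig 7 had the lowest trimmed mean of M values (TMM) factor of the 12, 0.81 beside 0.918 to 1.12, and the widest spread of log2 CPM (counts scaled to a common library size) around the 12-pig median over all genes, an SD of 0.781 beside 0.493 to 0.736. The splicing genes took 0.154% of its counts, beside 0.195% to 0.235% in the others, before TMM scaling. After it they summed to 1898 CPM in pig 7, beside 1920 to 2255 CPM in the other 11 pigs. Those outside the SR class summed to 1692 CPM, within the 1624 to 1910 CPM of the others. The muscle label was met by ACTA1, the skeletal actin, at 14492 to 33957 CPM in the 12 pigs. Adipocyte markers found by name did not separate the IMF groups, with sums of 415 to 582 CPM in high and 250 to 766 CPM in low IMF pigs. Of the 9 genes, 2 were lower in low IMF pigs. Y-linked counts went against the labelled sex in 6 pigs, 2 high IMF and 4 low IMF pigs with pig 7 among them. Whether the sex labels or the assignment of libraries to animals are wrong could not be told, and in the second case the IMF groups and the identity of pig 7 would be affected too. Lanes, each shared by a pair of libraries, and slaughter days were not assigned to pigs in the sources used here, so they could not be tested. In a tissue sample, fewer cells of a type and less RNA per cell cannot be told apart.

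The comparison of the groups asked which splicing genes differed with IMF content. In the quasi-likelihood test of edgeR, 0 of the 72 genes reached an adjusted p of 0.05 and a log2 fold change (log2FC, low over high IMF) of 0.58 in size, where the background over all 14262 genes tested was also 0%. The smallest adjusted p by edgeR was 0.419. At an unadjusted p of 0.05 there were 5 genes. HNRNPUL1 and PRPF6 were higher in low IMF pigs, 2 of 72 beside 5.38% of all genes. HNRNPA2B1, THOC2 and THOC1 were higher in high IMF pigs, 3 of 72 beside 5.04%. The 5 genes together compared with 10.4% of all genes in either direction, so these counts did not exceed the background. They moved with single pigs: 6 genes were higher in high IMF pigs without pig 2, and 1 without pig 3, pig 7 or pig 11, while 4 were higher in low IMF pigs without pig 2, pig 10 or pig 11. In the 6 pigs whose Y-linked counts matched the label, 4 high and 2 low IMF, 1 gene stood at that threshold in each direction and 0 were called. Without pig 7, again 0 genes were called by edgeR, and 4 stood at an unadjusted p of 0.05, namely HNRNPUL1, PRPF6 and SRSF1 higher in low IMF pigs (background 4.76%) and THOC2 higher in high IMF pigs (background 4.12%). limma-voom also called 0 genes. DESeq2's Wald test put 1 splicing gene, HNRNPUL1, at an adjusted p of 0.05 or less with its log2FC under 0.58, against a background of 0.723% of genes. It called 0 splicing genes with the log2FC threshold (background 0.458%), and without pig 7 it put 0 at an adjusted p of 0.05. The groups did not overlap for 1 splicing gene higher in low IMF pigs and for 0 higher in high IMF pigs (background 0.259% and 0.400%), and again for 1 and 0 without pig 7 (background 0.386% and 0.596%).

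**Figure D1:**
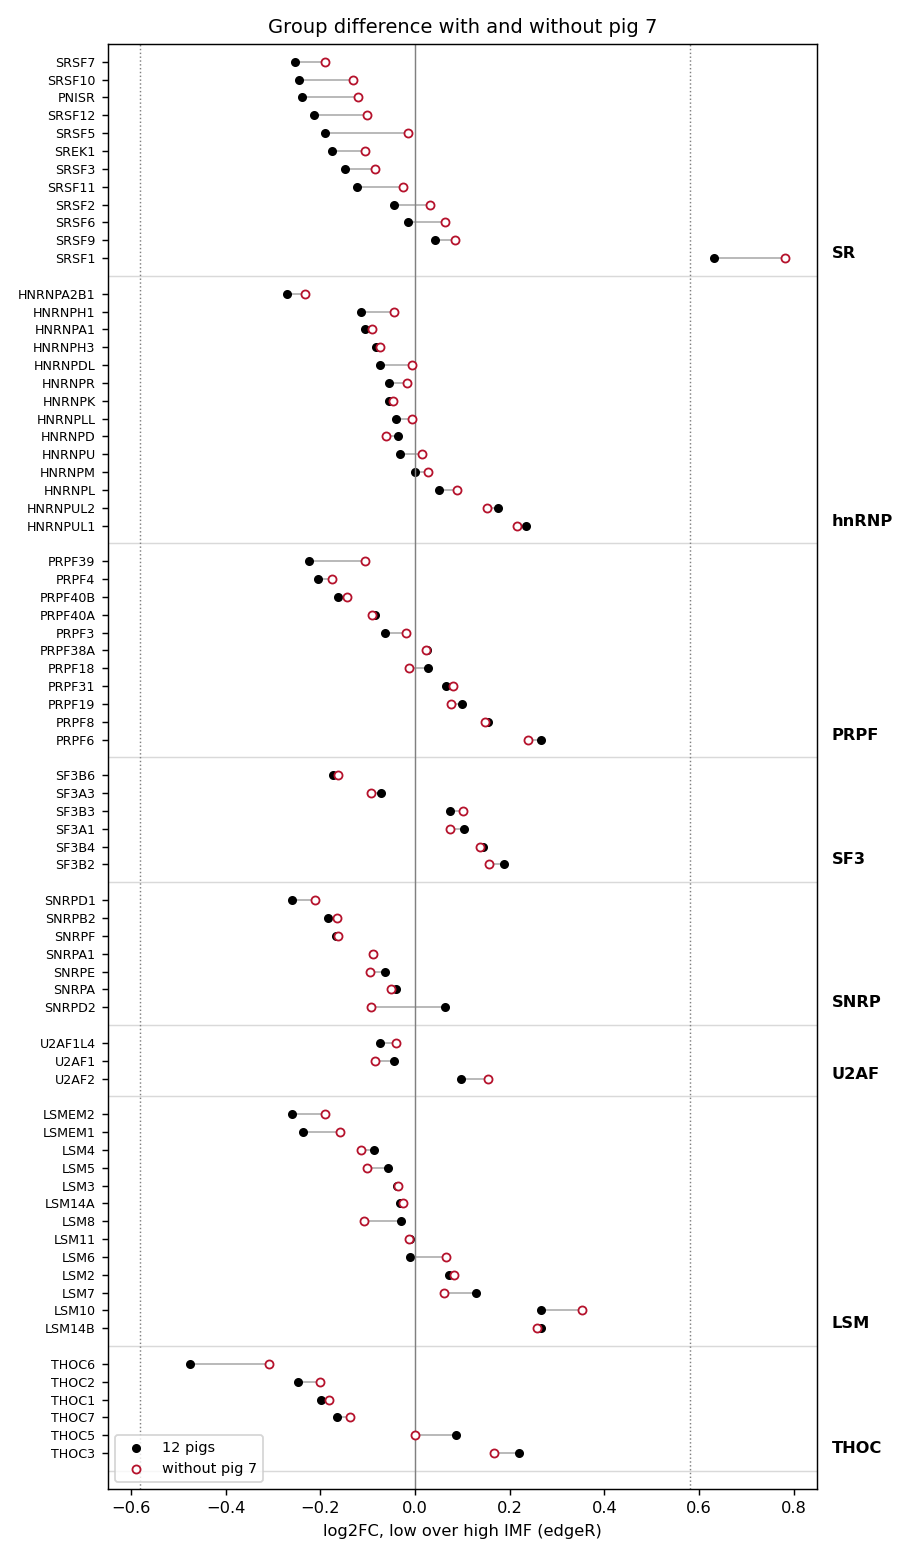
Each row is one of the 72 genes tested, grouped by class, with its log2FC (low over high IMF, edgeR) over 12 pigs as a filled point and without pig 7 as an open point. The dotted lines mark 0.58 in either direction, the solid line marks 0. In the SR class all open points lie to the right of the filled ones. SRSF1 is the sole gene beyond a dotted line.

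The SR class was where pig 7 stood farthest from the other pigs. Pig 7 had the lowest level of all 12 pigs for 10 of the 12 SR genes, where it was lowest for 13.9% of all genes tested. Each of the other 11 pigs was lowest for between 0 and 1 SR gene. Summed over the class, pig 7 reached 207 CPM, beside 296 to 365 CPM in the other 11 pigs. The class median of its log2 difference from the 12-pig median was -0.481, while the other pigs lay between -0.0627 and 0.11. All 12 SR genes were below the median of the other 5 low IMF pigs in pig 7 (51.0% of all genes were), and 11 of the 12 were below -0.314, which 25% of all genes were. Pig 7 had stood apart in earlier results of these data, so these values describe it, and 1 pig gives no test.

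**Figure D2:**
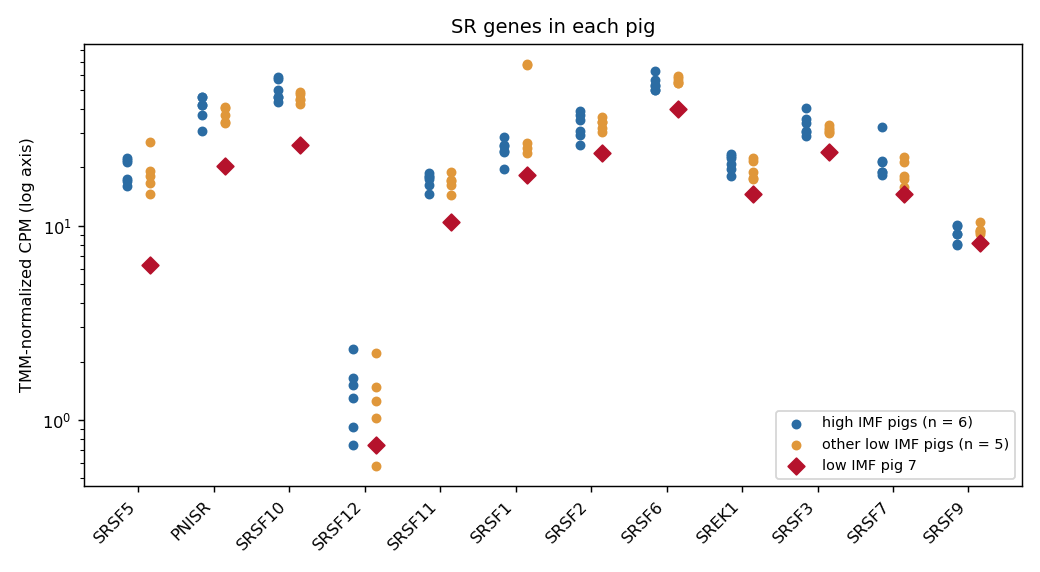
TMM-normalized CPM (log axis) of the 12 SR genes, ordered by the distance of pig 7 from the other low IMF pigs. Points are single pigs, high IMF on the left and low IMF on the right of each gene, with pig 7 as a diamond. The diamond is the lowest point for all genes but SRSF12 and SRSF9. The 2 high SRSF1 points are pigs 9 and 12.

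SRSF5, an SR protein first described from an mRNA induced by insulin, showed the largest distance. It lay at 6.25 CPM in pig 7, where the other 5 low IMF pigs had 26.9, 19.2, 14.5, 18 and 16.6 CPM (pigs 8 to 12). The 6 high IMF pigs had 16 to 22.3 CPM, with a median of 19.4. Pig 7 alone stood below both groups, at 34.9% of the median of pigs 8 to 12. The other pigs of both groups overlapped, and the low IMF pigs reached beyond the high IMF pigs at both ends. The log2FC of SRSF5 was -0.19 ± 0.249 (SE, n = 6 and 6; adjusted p by edgeR 0.827), and -0.01 ± 0.157 (SE, n = 6 and 5; adjusted p by edgeR 0.985) without pig 7. It also moved with pig 8, the highest of the 12, to -0.36 without it.

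PNISR, a nuclear protein rich in arginine and serine that associates with the SR protein partner pinin, had 20.4 CPM in pig 7 and 40.9, 40.3, 34.1, 37.1 and 33.8 CPM in pigs 8 to 12. The high IMF pigs had 30.9 to 46 CPM, with a median of 42. Its pig 7 value was thus 55.1% of the median of the other low IMF pigs, and no other pig came near it. The log2FC was -0.24 with pig 7 (adjusted p by edgeR 0.62) and -0.12 without it (adjusted p by edgeR 0.758).

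SRSF10, an SR protein that represses splicing when dephosphorylated, for example after heat shock, had 25.9 CPM in pig 7 beside 42.6 to 48.7 CPM in the other 5 low IMF pigs, whose median was 44.9. The high IMF pigs had 43.4 to 58.2 CPM, with a median of 48.1. Pig 7 again lay below all others, and the remaining pigs of both groups overlapped. SRSF11 had 10.5 CPM in pig 7, beside 14.4 to 18.9 CPM in the other 5 low and 14.5 to 18.8 CPM in the high IMF pigs. SREK1, a splicing regulator that binds other SR proteins, was closer, at 14.5 CPM in pig 7 beside 17.5 to 22.4 and 18 to 23.5 CPM. Their log2FC moved from -0.24 to -0.13 (SRSF10), from -0.12 to -0.02 (SRSF11) and from -0.18 to -0.10 (SREK1) when pig 7 was left out. PNISR, SREK1 and SRSF11, with PRPF39 and THOC1, had been named as network hubs from these same samples, so their values are not independent of that choice.

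SRSF5, PNISR and SRSF10, the 3 SR genes with the largest distance of pig 7, are shown with the 250 bases before their RefSeq start (Sscrofa11.1), because they lay low together in 1 animal. Capitals mark the letters CCAAT (the CCAAT box), CCGGAAG (an ETS core), TGACG (the core of a cyclic AMP response element) and GGGCGG (the GC box), searched on both strands. No 2 of the marked motifs share letters. SRSF5 is read from the plus strand at chr7:93393129-93393378, PNISR from the minus strand at chr1:66382206-66382455 and SRSF10 from the minus strand at chr6:81741517-81741766.
SRSF5: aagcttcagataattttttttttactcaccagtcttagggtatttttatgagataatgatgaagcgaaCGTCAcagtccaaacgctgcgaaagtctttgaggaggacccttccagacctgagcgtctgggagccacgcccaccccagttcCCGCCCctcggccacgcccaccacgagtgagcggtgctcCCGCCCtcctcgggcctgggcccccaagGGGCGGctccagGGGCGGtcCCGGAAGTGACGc
PNISR: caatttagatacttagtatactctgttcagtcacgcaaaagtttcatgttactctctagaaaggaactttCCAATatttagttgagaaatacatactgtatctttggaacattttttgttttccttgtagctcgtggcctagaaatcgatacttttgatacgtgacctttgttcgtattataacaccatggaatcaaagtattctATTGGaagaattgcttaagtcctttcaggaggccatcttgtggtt
SRSF10: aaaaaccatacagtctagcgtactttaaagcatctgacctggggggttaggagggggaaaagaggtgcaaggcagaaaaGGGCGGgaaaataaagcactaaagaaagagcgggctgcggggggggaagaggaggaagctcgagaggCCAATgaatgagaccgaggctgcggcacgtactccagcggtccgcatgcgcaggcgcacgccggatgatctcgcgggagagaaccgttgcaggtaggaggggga
SRSF5 had 4 GC boxes, 2 TGACG and 1 ETS core in this window, PNISR held the CCAAT box 2 times, and SRSF10 held 1 CCAAT box and 1 GC box. No motif was present in all of the 3. Over the 12 SR genes, the CCAAT box occurred in 5, the GC box in 5, TGACG in 5 and the ETS core in 2. Over 11031 windows of the same length, the CCAAT box was found in 32.6%, TGACG in 22.9%, the GC box in 56.5% and the ETS core in 10.2%. The matches describe letters and not bound sites.

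Of the remaining SR genes, SRSF6, SRSF2, SRSF3 and SRSF7 were also lowest in pig 7. SRSF6, the SR gene with the highest CPM, had 39.9 CPM in pig 7, 54.5 to 59.1 CPM in the other low IMF pigs and 50 to 62.9 CPM in the high IMF pigs. SRSF2, SRSF3 and SRSF7 stood at 69.4%, 77.4% and 80.3% of the median of the other low IMF pigs. SRSF9, at 86.9%, and SRSF12, at 60.2%, were not lowest in pig 7, with 2 pigs below it in each. SRSF12 was the rarest SR gene, at 0.581 to 2.31 CPM.

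SRSF1, the first described SR protein, varied in another way. Its highest levels were 68 CPM in pig 9 and 67.4 CPM in pig 12, both of the low IMF group, while the other 10 pigs had 18.3 to 28.6 CPM. The high IMF group had a mean of 24.7 ± 3 CPM (SD, n = 6) and the low IMF group 38.2 ± 23 CPM (SD, n = 6). The groups overlapped, and the log2FC of 0.63 rested on those 2 pigs, at 0.39 without pig 9. The adjusted p by edgeR was 0.496, and 0.54 without pig 7, where the log2FC was 0.78. An exact two-sided permutation test of the group difference gave p = 0.335 with pig 7 and p = 0.0952 without it. As a class, 10 of 12 SR genes were lower in low IMF pigs (83.3%, beside 51.6% of all genes), with a median log2FC of -0.161 beside -0.00835 over all genes. Without pig 7 these values were 8 of 12 and -0.0545.

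**Figure D3:**
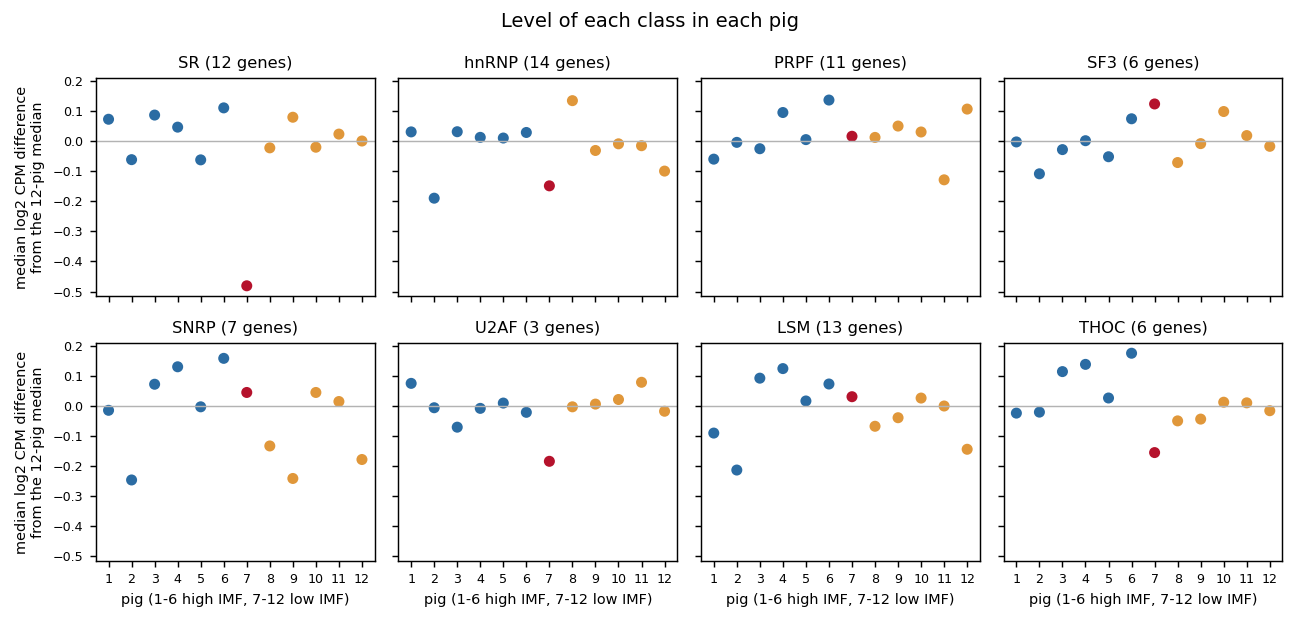
For each class and pig, the median over the genes of the class of the log2 CPM difference from the 12-pig median of each gene. Pigs 1 to 6 are high IMF and pigs 7 to 12 low IMF, with pig 7 in red. Pig 7 is far below the others in the SR panel at -0.481, and is also the lowest point in the U2AF and THOC panels, at -0.184 and -0.155.

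The hnRNP genes were nearer to the other pigs in pig 7, which was lowest for 3 of 14 and highest for 2 of 14 genes. Its class median was -0.149, above pig 2 at -0.19. The 3 were HNRNPH1, a regulator that binds runs of G, HNRNPDL and HNRNPR. HNRNPH1 had 91.6 CPM in pig 7 beside 109 to 141 CPM in the other low IMF pigs, and 96.4 to 145 CPM in high IMF pigs, with the lowest of these in pig 2. HNRNPDL, which regulates its own mRNA by alternative splicing, had 78.8 CPM in pig 7 and 91.3 to 115 CPM in the other 11 pigs. Between the groups, 11 of 14 hnRNP genes were lower in low IMF pigs with a median log2FC of -0.0474, and 9 of 14 with a median of -0.0124 without pig 7.

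HNRNPUL1, an RNA-binding relative of the nuclear matrix protein HNRNPU (chr6:49280296-49315967, plus strand), was the one splicing gene whose groups did not overlap. The high IMF pigs had 44.6, 42.7, 43.4, 41.1, 39.5 and 41.8 CPM (pigs 1 to 6). The low IMF pigs had 53.9, 50.6, 47.6, 52, 47.5 and 46.1 CPM (pigs 7 to 12). Every low IMF pig was above every high IMF pig, as was the case for 0.259% of all genes tested, and pig 7 was the highest of all. The log2FC was 0.23 ± 0.0723 (SE, n = 6 and 6), with an adjusted p of 0.419 by edgeR. It was 0.22 ± 0.0725 without pig 7, with an adjusted p of 0.503 by edgeR. The exact two-sided permutation test gave p = 0.00216, the smallest value that 6 pigs against 6 can give. Any gene whose groups do not overlap gets this value, so it adds nothing to that separation, seen for 1 gene among 72. DESeq2's Wald test gave it an adjusted p of 0.0451 on the same genes, 0.0421 on all genes with a count, and 0.123 without pig 7. Its adjusted p ranged from 0.0421 to 0.998 over the alternatives and tools run, and stood at or under 0.05 in 2 of 29.

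HNRNPA2B1, an abundant hnRNP protein that also sorts RNA for transport, went the other way (chr18:46205164-46215861, plus strand). The high IMF pigs had 200, 122, 206, 196, 186 and 166 CPM, and the low IMF pigs 133, 156, 145, 153, 147 and 159 CPM. Pig 2 was the lowest of all 12 and the other 5 high IMF pigs were above all low IMF pigs. The log2FC was -0.27 ± 0.12 (SE, n = 6 and 6; adjusted p by edgeR 0.463), and -0.23 ± 0.125 without pig 7 (adjusted p by edgeR 0.602). It had the highest level of the 13 hnRNP genes with a length (HNRNPU had none) per kilobase of RefSeq transcript, 41.3 CPM per kilobase. HNRNPUL2, the nearest relative of HNRNPUL1, had a mean of 14.2 ± 1.78 CPM (SD, n = 6) in high and 16 ± 2.16 CPM (SD, n = 6) in low IMF pigs, and pig 7 was the highest, with ranges that overlapped.

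**Figure D4:**
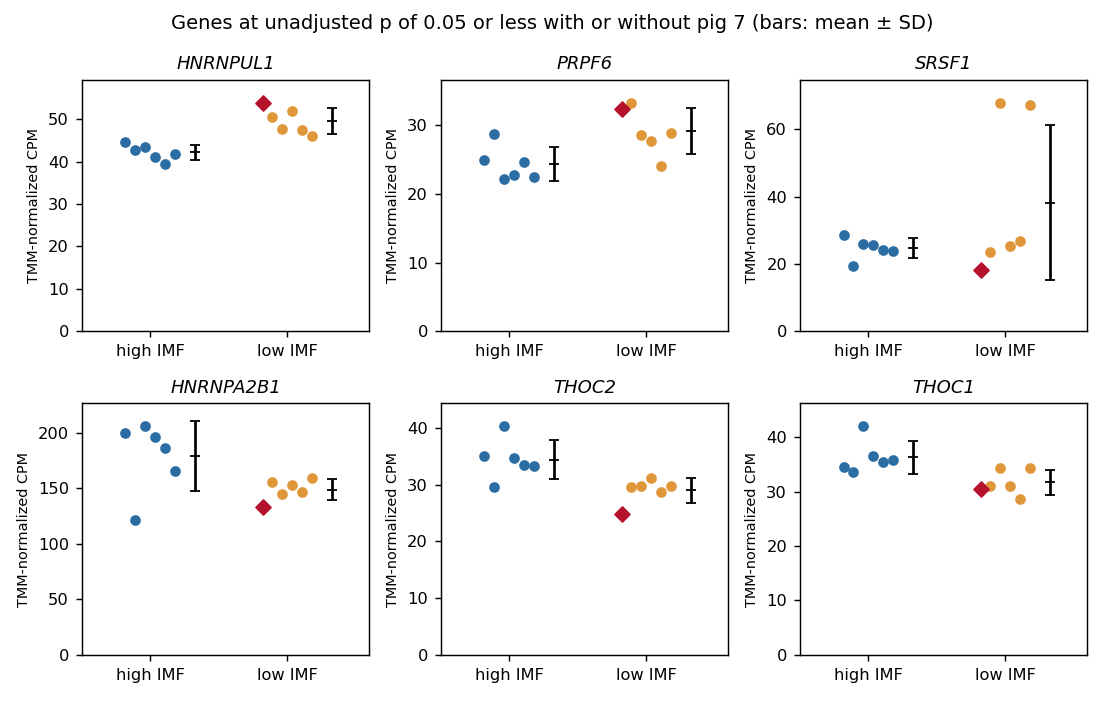
TMM-normalized CPM per pig (points, in the order of the pigs within each group, pig 7 as a diamond) with mean ± SD (n = 6 per group) for the 6 genes at an unadjusted p of 0.05 or less with or without pig 7. The groups separate for HNRNPUL1 and overlap in the other panels. The SRSF1 panel shows 2 low IMF pigs above 60 CPM.

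The PRPF genes code for proteins of the U1, U4/U6 and U5 snRNPs, the core of the Prp19 complex (PRPF19) and a factor of the late catalytic step (PRPF18), and pig 7 was lowest for 3 of 11, PRPF39, PRPF3 and PRPF4. PRPF39, a partner of the U1 snRNP, had 11.2 CPM in pig 7 beside 17 to 28.9 CPM in the other low IMF pigs and 19.7 to 25.8 CPM in the high IMF pigs. Its log2FC was -0.22 with pig 7 (adjusted p by edgeR 0.679) and -0.11 without it (adjusted p by edgeR 0.842), but -0.39 without pig 10, the highest of the 12. PRPF3 and PRPF4 lay at 83.3% and 92.8% of the median of the other low IMF pigs. The class median in pig 7 was 0.0157, beside -0.129 to 0.136 in the other 11 pigs. PRPF6, a bridge between U5 and U4/U6, had 22.1 to 28.7 CPM (median 23.7) in high and 24.1 to 33.3 CPM (median 28.8) in low IMF pigs. The ranges overlapped through pig 2 and pig 11, and the log2FC was 0.27 ± 0.0998 (adjusted p by edgeR 0.434) and 0.24 ± 0.103 without pig 7 (adjusted p by edgeR 0.549). PRPF8, which forms the core of the catalytic centre and had the highest CPM of its class, had 83 to 129 CPM in high and 95.6 to 126 CPM in low IMF pigs. Over the class, 5 of 11 genes were lower in low IMF pigs and the median log2FC was 0.0253, with 6 of 11 and -0.012 without pig 7.

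SF3A and SF3B proteins hold the U2 snRNP at the branch point. Pig 7 was lowest for 0 of the 6 SF3 genes and highest for 1, SF3B2, and its class median of 0.123 was above the range of the other 11 pigs, -0.109 to 0.0979. SF3B2 had 44.2 CPM in pig 7, 34.9 to 40.9 CPM in the other low IMF pigs and 30.5 to 39.3 CPM in the high IMF pigs. Its log2FC was 0.19 with pig 7 and 0.16 without (adjusted p by edgeR 0.498 and 0.632). SF3B3, a scaffold of the SF3B complex, had 53.5 to 63.3 CPM in high and 57.5 to 72.4 CPM in low IMF pigs. SF3A1 was higher in pig 7 than in all other pigs but 1, with 17.7 CPM beside 11.5 to 20.4 CPM. SF3B4, which binds upstream of the branch point, had 6.68 to 8.41 CPM in high and 7.64 to 8.79 CPM in low IMF pigs, and SF3B6, at the branch point itself, 13.1 to 17.9 and 12.8 to 16 CPM. The ranges of both overlapped. The class median log2FC was 0.0891, and 0.0877 without pig 7.

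The SNRP genes code for Sm core and other snRNP proteins. Pig 7 was lowest for SNRPD1 and highest for SNRPD2, whose products pair within the Sm ring. SNRPD2 had 32.9 CPM in pig 7, 16.9 to 21 CPM in the other low IMF pigs and 18.6 to 22.9 CPM in the high IMF pigs. SNRPD1 had 6.34 CPM in pig 7 and 6.77 to 13.3 CPM elsewhere, with the highest value in pig 6. The log2FC of SNRPD2 was 0.06 with pig 7 (adjusted p by edgeR 0.91) and -0.09 without it (adjusted p by edgeR 0.76), so its direction came from that pig. SNRPB2, of the U2 snRNP, had 7.96 to 11.6 CPM in high and 6.48 to 9.61 CPM in low IMF pigs, and the Sm gene SNRPF 3.23 to 6.08 and 3.68 to 4.72 CPM. Of the 7 genes tested, 6 were lower in low IMF pigs and 7 without pig 7, and the class medians were -0.0891 and -0.094. In the U2AF class, whose proteins recognize the polypyrimidine tract and the 3′ splice site, pig 7 was neither lowest nor highest for any of the 3 genes. Its class median was -0.184 beside -0.0706 to 0.0785, and U2AF2, the large subunit, had 16.3 CPM in pig 7, 18.9 to 23.1 CPM in the other low and 15.9 to 20.2 CPM in the high IMF pigs. U2AF1, the small subunit, went the other way in pig 7, with 10.1 CPM beside 7.5 to 10.1 CPM in the other 11 pigs, and its relative U2AF1L4 had 4.36 CPM beside 4.16 to 6.64 CPM. The median log2FC of the class was -0.0433, and -0.0396 without pig 7.

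The LSM class holds genes of the rings that bind U6 RNA (LSM2 to LSM8) or, in the cytoplasm, mRNA under decay (LSM2 to LSM7). It also holds parts of the U7 snRNP (LSM10, LSM11) and the P-body proteins LSM14A and LSM14B. Pig 7 was lowest for LSM6 and the membrane protein gene LSMEM1, and highest for LSM7 and LSM8. LSM8 had 16.8 CPM in pig 7 beside 10.5 to 15.2 CPM in the other 11 pigs. LSM6, of the same ring, had 6.64 CPM beside 7.08 to 9.99 CPM. The ring genes thus lay on both sides of the other pigs in pig 7. LSM10 had 2.86 CPM in pig 1 and 3.95 CPM in pig 9 beside 0.41 to 0.811 CPM in the other 10. LSM14A had 103 to 145 CPM in high and 106 to 133 CPM in low IMF pigs. It had the highest level of all 69 genes with a length when given per kilobase of RefSeq transcript (87.3 CPM per kilobase). That rank depends on the annotated length, 1392 bases for LSM14A, while the counts were made per Ensembl gene. By mean CPM LSM14A had 121, below HNRNPA2B1 with 164. LSM14B had a mean of 12.4 ± 2.35 CPM (SD, n = 6) in high and 14.9 ± 3.27 CPM (SD, n = 6) in low IMF pigs. LSMEM1 and LSMEM2 had 15.9 and 5.81 CPM in pig 7, beside 16.5 to 29.2 and 5.62 to 10.5 CPM in the others. The class median log2FC was -0.0294 with pig 7 and -0.0251 without, and -0.0111 and -0.0121 over the 11 genes without LSMEM1 and LSMEM2.

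The THOC genes code for the THO complex, which couples transcription to mRNA export. This class had the lowest median log2FC of the 8, -0.182 with pig 7 and -0.159 without it, on 4 of 6 and 5 of 6 genes lower in low IMF pigs. The class summed to 130 to 156 CPM in high and 117 to 130 CPM in low IMF pigs, with the lowest value in pig 7. THOC2, the scaffold of the complex (chrX:101170969-101284623, minus strand), had 35.1, 29.6, 40.3, 34.7, 33.5 and 33.3 CPM in pigs 1 to 6 and 24.9, 29.6, 29.8, 31.1, 28.8 and 29.8 CPM in pigs 7 to 12. Only pig 2 of the high IMF group was within the low IMF range, and pig 7 was the lowest. The log2FC was -0.25 ± 0.0891 (adjusted p by edgeR 0.427) and -0.20 ± 0.0859 without pig 7 (adjusted p by edgeR 0.549). The exact permutation test gave p = 0.0108 and, without pig 7, p = 0.0173, for 1 gene among 72.

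THOC1, the founding subunit (chr6:106039262-106088125, plus strand), had 33.6 to 42 CPM (median 35.7) in high and 28.7 to 34.4 CPM (median 31) in low IMF pigs. Pigs 9 and 12 of the low IMF group were within the high IMF range. The log2FC was -0.20 ± 0.0819 (adjusted p by edgeR 0.441) and -0.18 ± 0.0868 without pig 7 (adjusted p by edgeR 0.565). The exact permutation test gave THOC1 p = 0.00866 and, without pig 7, p = 0.0152. As a network hub named from these same samples, THOC1 was not chosen independently of these values. THOC6, another subunit, had 3.37 CPM in pig 7, beside 6.48 to 13.5 CPM in the other low and 8.12 to 18.1 CPM in the high IMF pigs. Its distance from the other low IMF pigs, -1.52 on the log2 scale, was as large as that of SRSF5, while THOC5 was highest in pig 7, with 20.2 CPM beside 12.6 to 17.3 CPM in the other 11. THOC7, which had the highest CPM of the class, had 33.9 CPM in pig 7 and 34.4 to 49.2 CPM in the others. The log2FC of THOC6 was -0.48 with pig 7 and -0.31 without (adjusted p by edgeR 0.585 and 0.702).

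Outside SR, pig 7 was lowest for 12 of 60 genes (20%) and highest for 7 (11.7%), beside 13.9% and 13.5% of all genes. The medians of its log2 difference from the other 5 low IMF pigs were -0.537 for SR, -0.206 for U2AF, -0.16 for hnRNP, -0.0571 for THOC, 0.0183 for PRPF, 0.0307 for SNRP, 0.12 for LSM and 0.124 for SF3, beside -0.0103 over all genes.

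**Figure D5:**
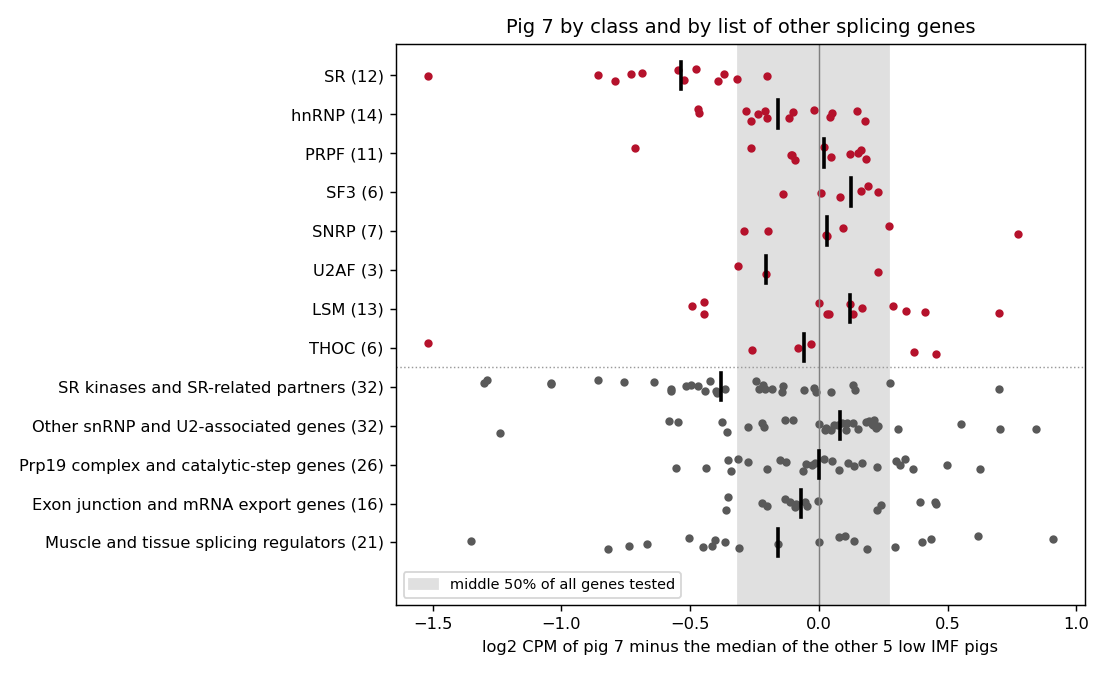
Log2 CPM of pig 7 minus the median of the other 5 low IMF pigs, one point per gene, for the 8 classes (red) and 5 lists of other splicing genes (grey), with the number of genes tested. Black bars are medians and the shaded band is the middle 50% of all 14262 genes (-0.314 to 0.272). The SR median (-0.537) and the median of the SR kinases and partners (-0.38) lie left of the band.

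Among splicing genes not chosen by these names, the 32 kinases and partners of SR proteins resembled the SR class in pig 7 in part. It was lowest for 19 of 32 (59.4%) and highest for 1, with a median log2 difference of -0.38. Pig 7 was below the median of the other 5 low IMF pigs for 27 of 32. Not all kinases were low, with SRPK2 at 163%, DYRK1A at 121% and SRPK1 at 90.6% of that median. The genes farthest below, picked after their values were seen, were CCNL2 and CCNL1, cyclins of splicing kinases, with 4.46 CPM beside 9.46 to 15.9 and 11.2 CPM beside 22.7 to 68.1 in the other 11 pigs. TRA2B, an SR-related activator, had 20 CPM beside 28.5 to 60.9 CPM. In the other lists pig 7 was lowest for 5 of 32 other snRNP and U2-associated genes, 3 of 26 Prp19 complex and catalytic-step genes, 2 of 16 exon junction and export genes and 6 of 21 muscle and tissue splicing regulators. Among the 5 of 32 was SNRNP70, the U1 protein that SR proteins contact, with 6.58 CPM beside 12.8 to 21.9 CPM (also picked after its values were seen).

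Between the groups, 0 genes of these 5 lists were called by edgeR. At an unadjusted p of 0.05, which 5.38% of all genes met as higher in low and 5.04% as higher in high IMF pigs, the counts in these directions were 0 and 3 of 32 SR kinases and partners, 1 and 1 of 32 other snRNP genes, 1 and 0 of 26 Prp19 and catalytic-step genes, 0 and 0 of 16 exon junction and export genes and 2 and 1 of 21 regulators. CLK1, a kinase that phosphorylates SR proteins, had 33.8 to 75.1 CPM in high and 17.6 to 40.9 CPM in low IMF pigs, overlapping through pigs 2 and 8, with an adjusted p by edgeR of 0.229. RBM20, the regulator of titin splicing, had a mean of 27 ± 3.88 CPM (SD, n = 6) in high and 48.5 ± 19.1 CPM (SD, n = 6) in low IMF pigs, with an adjusted p by edgeR of 0.342. RBM38, another muscle regulator, had 31.9 to 52.3 CPM in high and 42.7 to 89.8 CPM in low IMF pigs, the highest in pig 7. U2SURP, an SR-related U2 protein, had 42.3 to 51.5 CPM in high and 35.8 to 42.7 CPM in low IMF pigs, which met through pigs 2 and 12. It was also a network hub chosen on these samples, so its values are not independent of that choice either. The minor spliceosome gene ZCRB1, at 10.8 to 14.1 CPM in high and 7.35 to 11.3 CPM in low IMF pigs, overlapped too, as did PUF60, DHX38, DHX35, ENY2 and POLDIP3, the others with the smallest p of their lists.

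Other measures were compared in pig 7. The summed CPM of the skeletal muscle markers found by name (5 of 10, none at 0) was 67404 in pig 7, beside 36143 to 51305 in the high and 38370 to 50971 in the other low IMF pigs. Endothelial markers (6 of 8) summed to 170 CPM beside 106 to 152 in the other 11 pigs. Macrophage markers (8 of 8, MARCO below the filter) summed to 116 CPM, within the 56.1 to 125 CPM of the other pigs. Only pig 6 was higher, and pigs 8 to 12 had 65.8 to 85 CPM. Of the 7 macrophage genes tested, 1 was below the median of the other 5 low IMF pigs in pig 7. Their median log2 difference from it was 0.772. Adipocyte markers (9 of 10) summed to 568 CPM, within 250 to 766, but PLIN4 and LPL made up most of that sum. ADIPOQ, CIDEC, PLIN1, FABP4 and LIPE stood at 25.7%, 33.1%, 35.4%, 55.6% and 78.2% of the median of pigs 8 to 12, and LEP was listed at 0. LPL and PLIN4 stood at 101% and 111%, and CFD at 173%, the highest of the 12 pigs. The list's median log2 difference of pig 7 from the 12-pig median was -0.71, beside -1.19 to 1.11 in the other 11 pigs. Fibro-adipogenic markers (8 of 8) at 3240 CPM, satellite cell markers (5 of 5) at 12.4 CPM and erythroid markers (5 of 5) at 2.65 CPM were within the range of the other pigs, with CHRDL2, SLC4A1 and CA1 at 0 in pig 7. Heat shock genes (10 of 12) at 2326 CPM and immediate early genes (11 of 12) at 1192 CPM were also within range. HSP90AA1 and JUNB were listed at 0 in every pig, so these sums lack them. Of the 10 immediate early genes tested, pig 7 was lowest for 0 and highest for 1, NR4A3, with 508 CPM beside 67.2 to 283 CPM. HSPA8 alone made up 1404 CPM of the heat shock sum. All 9 heat shock genes tested were below the median of the other 5 low IMF pigs in pig 7, with a median log2 difference of -0.28. Pig 7 was lowest of the 12 for 1 of them, DNAJB4, with 134 CPM beside 279 to 789 CPM in the others. In the mapping statistics that accompany the study, whose values are not used here, the same library had the lowest share of uniquely mapped reads. The part of this in the SR levels of pig 7 was not tested. Nor was that of the muscle, endothelial, macrophage and adipocyte markers, the heat shock genes, the TMM factor or the age of pig 7. With DESeq2's size factors, upper-quartile scaling, no scaling beyond the total count and the other settings run, pig 7 was lowest for 10 to 11 of the 12 SR genes. The setting without scaling could not lower that count, because pig 7 had the lowest TMM factor. In that setting pig 7 was also lowest for 32 of 60 genes outside SR. Setting pig 7 beside only the 6 pigs whose Y-linked counts matched the label could not lower the SR count either. Fewer pigs were compared there.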

How the data were processed

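RNA of Semimembranosus muscle from 12 pigs was sequenced from TruSeq stranded mRNA libraries as paired reads of 100 bases. According to the methods, the authors trimmed reads with Trimmomatic, aligned them to Sscrofa11.1 by HISAT2, ran StringTie for known transcripts and obtained counts from HTSeq. They deposited raw counts per Ensembl gene as whole numbers without normalization. The annotation release, the strand option and how multi-mapping reads were treated were not given in the sources used here, so paralogs, pseudogene families such as that of HNRNPA1, and overlapping or antisense genes stay uncertain.

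Groups came from the labels, and each pig was a separate animal. Genes were named through a table of Ensembl IDs (14857 of 25880 named), and positions and windows came from RefSeq on Sscrofa11.1, matched by symbol for 69 genes. Genes passing filterByExpr (14262, or 14456 without pig 7) were normalized by TMM and tested with edgeR 4.0.16 (R 4.3.3, quasi-likelihood, group only), with Benjamini-Hochberg adjustment over all of them. Genes were called at an adjusted p of 0.05 and a log2FC of 0.58 in size. Log2 CPM used a prior count of 2. Script checks ran on simulated data. Counting error was small beside the spread between pigs (common biological coefficient of variation 0.332). Alternatives were DESeq2 1.42.0, limma 3.58.1, other scalings, filters, prior counts and sex terms, and each pig left out.

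The genes named were the 5 hubs, per class the 3 with the smallest p, the 2 with the largest distance of pig 7 from the other low IMF pigs and the 1 with the highest CPM, and per list the 2 with the smallest p. The genes, lists and rules were chosen with earlier results of these data known. DESeq2 gave no adjusted p for LSM10.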

Additional observations from a re-analysis of the deposited data

Results flagged for a closer look

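Within each group of 6 pigs, the gap between the extreme pig and its neighbour was divided by the range of the group, and a value above Dixon's 95% critical value for 6 samples set the pig apart. Of 96 groups of values checked, 14 passed. Chance flags about 1 in 20 groups of values that were not chosen beforehand, but many of these genes were named for their distance in pig 7 or their small p, so that rate is no comparison here. No value below was tested against a cause.

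In the low IMF group, pig 7 was the extreme for the class level of SR (0.818), U2AF (0.634) and THOC (0.629), and for SRSF6 (0.795), SRSF10 (0.787), PNISR (0.727) and THOC2 (0.648), all as the lowest, and for SNRPD2 (0.676) as the highest. Pig 9 was the highest of that group for LSM10 (0.702).

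In the high IMF group, pig 2 was the lowest for the hnRNP class level (0.905) and HNRNPH1 (0.684). Pig 6 was the highest for SRSF7 (0.698), pig 3 for THOC1 (0.626) and pig 1 for LSM10 (0.699).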

How the results depend on the processing

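The count of 0 called genes held under all alternatives run, with and without pig 7. Leaving out each pig in turn, 2 to 4 genes were higher in low and 1 to 6 in high IMF pigs at an unadjusted p of 0.05, the log2FC of SNRPD2 ranged from -0.0934 to 0.123, and the PRPF median log2FC ranged from -0.0516 to 0.0528 and the U2AF median from -0.0568 to 0.0157. Without the pigs whose Y-linked counts went against the label, these were 1 and 1 gene, with class medians of -0.0541 for PRPF and 0.0411 for U2AF. Without pigs 6 and 7, chosen after seeing the data, 1 gene was higher in high IMF pigs, and DESeq2's Wald test without pig 7 gave 2 in place of 1. Without scaling beyond the total count, also chosen after seeing the data, pig 7 was lowest for 32 genes outside SR and highest for 1. Beside the 6 pigs that matched their label it was highest for 11, a count that a comparison with fewer pigs could not lower. The log2FC of SNRPD2 turned negative with sample quality weights (-0.0421), without the pigs that went against the label (-0.0814), without pigs 6 and 7 (-0.0867) and without pig 7 (-0.0934). Beyond the samples left out, the causes were not tested. Depth limits the rare genes such as LSM10 and LSM11 most. No paired analysis was possible because replicate numbers were given in accession order and pair no pigs.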
